A study of Homo sapiens with 6 samples.

Results

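Replication-dependent histone genes were compared between 3 arrays of MAP30-treated and 3 arrays of control T24 cells. The genes were taken by symbol, as H1-1 to H1-5 and the numbered H2AC, H2BC, H3C and H4C genes without pseudogenes. The reference gene table held 69 of them. Of these, 60 had at least 1 probe set that names a single gene and were measured here, out of 18132 genes in all. These were 5 H1, 15 H2A, 18 H2B, 10 H3 and 12 H4 genes, on 103 of 49293 probe sets. A further 8 genes (H2AC18, H2AC19, H3C13, H3C14, H3C15, H4C11, H4C14 and H4C15) were read only by probe sets that also name another gene, and H2BC12L had none. The group was proposed with the contrast between MAP30 and control in view, so the values of that contrast are given as a description.

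The cells were T24, a human bladder cancer line. The MAP30 group received 10 µg/ml of MAP30, a toxin from bitter melon that depurinates ribosomal RNA and so inactivates ribosomes, and was harvested after 48 hours. The control arrays carry RNA of T24 cells labelled as normal, and the sources used here give neither their treatment nor their time in culture. Since no source states that replicates came from separate cultures, the p-values behind the calls reflect the spread between these samples alone, and that spread may be technical.

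Replication-dependent histones are made in S phase, when new DNA needs new nucleosomes. H3 and H4 form the central tetramer of the nucleosome, H2A and H2B add to it as dimers, and H1 binds the linker DNA outside it. Most mRNAs of these genes end in a conserved stem-loop without a poly(A) tail. The labelling used here belongs to a kit that copies RNA from its poly(A) tail, so what the probe sets read is mainly polyadenylated RNA. The genes come in many near-identical copies, most of them in clusters on chromosomes 1 and 6, and Affymetrix marks probe sets that match several transcripts by the ending _s_at and those with some shared probes by _x_at.

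The deposited values are log2 values centred on each probe set, so that its median over the 6 arrays is 0. No level can be read from them, values of different genes cannot be ranked by abundance, and the markers of the labelled cell line cannot be checked for presence. Where the 2 groups do not overlap, the centring also makes the facing values of the 2 groups mirror images of each other within a probe set. Across all genes the SD of the difference between arrays was 0.678 to 0.682 between groups and 0.131 to 0.147 within groups. The log2 ratio of 3' over 5' probe sets was higher with MAP30 by 0.158 for ACTB (SD 0.007 with MAP30 and 0.021 in control, n = 3 each; two-sided exact permutation p = 0.1, the smallest these arrays allow) and by 0.043 for GAPDH (exact permutation p = 0.1). The part of this shift in the values of the histone genes was not tested.

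Most histone genes were higher with MAP30. Of the 60, 44 were called higher and 1 lower by limma at an adjusted p of 0.05 over all genes, with 15 not called. Across all 18132 genes, 26.9% were called higher and 30.6% lower; the group was chosen on this contrast, so nothing is read from the excess. The median log2 fold change of the 60 genes was 0.47, beside -0.02 over all genes. In 17 of them the change was at least 2-fold, and in 7 at least 4-fold. Of all genes 5.42% were called higher and 4.13% lower with a change of at least 2-fold. At least 4-fold higher were 216 of all 18132 genes. The 3 MAP30 arrays lay above the 3 control arrays in 44 genes and below them in 1, beside 29.1% and 33.6% of all genes. A change in the share of cells in S phase and a change in RNA per cell cannot be told apart in these bulk samples.

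The medians of the classes lay between 0.33 and 0.75, and the values within a class ranged far more widely. The median log2 fold change was 0.75 in H4, where 11 of 12 genes were called higher, and 0.43 in H2B, where 12 of 18 were called higher and 1 lower. It was 0.38 in H1, with 4 of 5 called higher, 0.35 in H2A, with 10 of 15, and 0.33 in H3, with 7 of 10. Log2 fold changes ran from 0.11 to 4.45 in H4, from -0.03 to 3.61 in H2A, from -0.19 to 2.56 in H2B and from -0.07 to 2.46 in H3. The H1 genes kept within -0.04 to 0.70. Set against the mean of the control arrays, the median of the H4 genes was 0.78, 0.72 and 0.75 in the 3 MAP30 arrays, against 0.00, -0.06 and 0.02 in the control arrays. For H3 the same medians were 0.29, 0.38 and 0.33 with MAP30, against -0.05, 0.02 and 0.00 in control. In these medians of H4 and H3 the groups did not overlap. With the arrays centred on hybridization controls, which moves all genes down, 36 histone genes were called higher and 11 lower, and the class medians were 0.54 in H4, 0.22 in H2B, 0.17 in H1, 0.14 in H2A and 0.12 in H3. Named genes near 0 crossed the threshold in these settings. H1-5 (-0.25), H2AC12 (-0.24) and H3C3 (-0.28) were called lower with hybridization controls. H2AC14 (0.21), H2AC21 (0.18), H3C7 (0.19) and H4C7 (0.28) were called higher with poly-A controls. With hybridization controls H2AC14 came to -0.16, H2AC21 to -0.19, H3C7 to -0.18 and H3C12 to -0.18, so the direction of these genes depended on the reference. Without the probe sets ending in _x_at or _s_at, which left 46 genes, 28 were called higher and the median of H2B was 0.11.

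**Figure D1:**
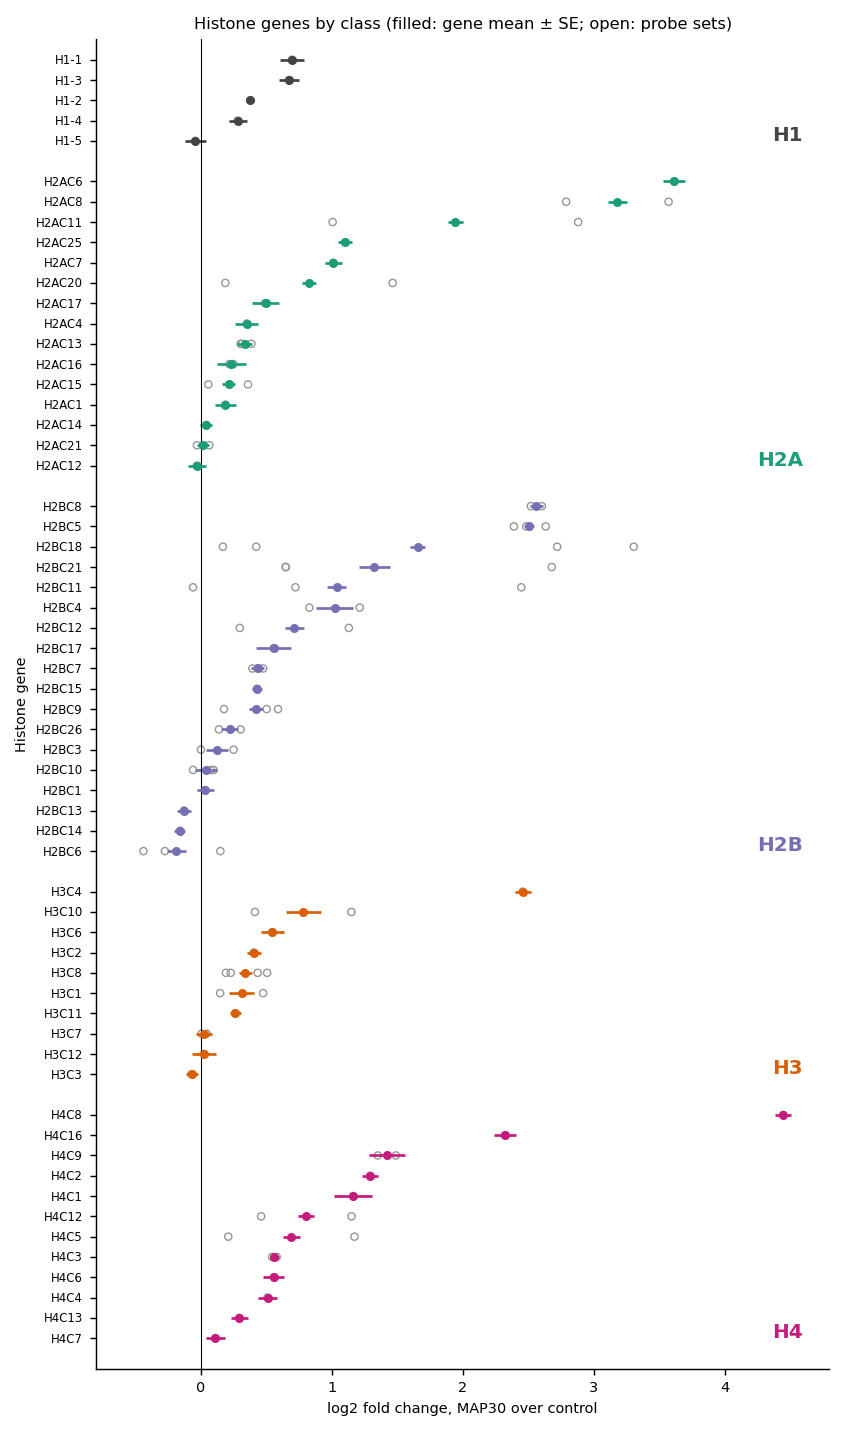
Each row is a histone gene, ordered by class and by change; the x axis is the log2 fold change of MAP30 over control. Filled points with bars are the gene's mean over its probe sets ± SE, and open circles are its single probe sets. Where a gene has 1 probe set, its circle lies at the filled point. H4C8 stands at 4.45, and most genes lie between 0 and 1.

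Among the H4 genes, which encode a nearly invariant core histone, H4C8 had the highest log2 fold change of all 60 genes. Its single probe set stood at 2.23, 2.13 and 2.25 in the MAP30 arrays, against -2.27, -2.32 and -2.13 in the control arrays, a log2 fold change of 4.45 ± 0.06 (SE, n = 3 per group) or 21.8-fold. All 3 MAP30 arrays were far above all 3 control arrays. H4C16, the only measured histone gene of the group on chromosome 12, stood at 1.14, 1.05 and 1.08 with MAP30, against -1.05, -1.41 and -1.25 in control, or 5.01-fold. H4C9 had 0.80, 0.73 and 0.50 with MAP30 and -0.68, -1.04 and -0.50 in control, or 2.68-fold. The arrays of each group were more scattered in H4C9 than in H4C8, and the groups again did not overlap.

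The lower end of the class was close to no change. H4C7 had -0.06, 0.08 and 0.08 with MAP30 and -0.02, -0.24 and 0.02 in control; its groups overlapped and it was not called (log2 fold change 0.11 ± 0.07 SE). H4C13 was called higher by 0.30 and H4C4 by 0.51, each with all 3 MAP30 arrays above control; H4C13 came to 0.09 and was not called when centred on hybridization controls. Most H4 genes encode the same protein; H4C7 is an exception, with a divergent H4-like product.

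H4C14 and H4C15 were read only together, by 2 probe sets that gave different values. The one ending in _s_at stood at 2.94, 3.03 and 2.94 with MAP30, against -2.99, -2.94 and -3.28 in control, a log2 fold change of 6.04 ± 0.09 (SE, n = 3 per group) or 65.8-fold. This exceeded that of every histone gene with a probe set of its own. The other, ending in _at, had 0.17, -0.01 and -0.09 with MAP30 and -0.18, 0.01 and 0.30 in control, with overlapping groups and a log2 fold change of -0.02. Which of the pair, or which transcript of either, each probe set read was not tested. In the reference gene table (GRCh38.p14) the span of H4C15 contains H2AC19 and H3C15, so signal of neighbouring genes may be shared. The probe set shared by H4C11 and H4C12 had a log2 fold change of 2.68, while H4C12 by the probe sets naming it alone had 0.81.

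The promoters of H4C8 and of H4C14 are shown because H4C8 has the highest value of the genes measured alone, H4C14 is 1 of the pair named by the probe set at 6.04, and both hold a short element at the same place. The sequences are the 250 bases before the gene's start from RefSeq (GRCh38.p14), chr6:26285535-26285784 on the minus strand for H4C8 and chr1:149832407-149832656 on the plus strand for H4C14, with the letters GGTCCG in capitals.
H4C8: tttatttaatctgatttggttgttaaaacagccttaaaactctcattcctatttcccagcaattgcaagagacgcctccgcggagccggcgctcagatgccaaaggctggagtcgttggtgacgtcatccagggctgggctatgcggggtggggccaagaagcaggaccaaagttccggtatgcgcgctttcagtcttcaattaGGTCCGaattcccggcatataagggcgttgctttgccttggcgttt
H4C14: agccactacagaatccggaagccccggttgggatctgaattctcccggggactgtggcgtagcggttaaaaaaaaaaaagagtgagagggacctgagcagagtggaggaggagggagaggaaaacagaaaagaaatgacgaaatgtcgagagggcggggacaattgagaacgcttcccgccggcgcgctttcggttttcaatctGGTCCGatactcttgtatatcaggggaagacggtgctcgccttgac
In both, GGTCCG begins at position -46, counted from the start of the gene. These 6 letters were chosen after the sequences had been seen, and were searched on both strands of 300 bases around each start (250 before and 50 after). They were found in 9 of 10 H4 promoters, in 1 of 14 H2A, 1 of 18 H2B, 1 of 8 H3 and 0 of 5 H1 promoters, and in 11.2% of all 27305 promoters in the table. The 1 H4 promoter without them was that of H4C7, the H4 gene that was not called, while H4C13, with a log2 fold change of 0.30, held them. No match says only that these letters are not in this window. A link of these letters with the change was not tested.

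The H3 genes, whose products pair with H4, held 1 large value. H3C4 stood at 1.18, 1.28 and 1.14 in the MAP30 arrays, against -1.32, -1.31 and -1.14 in the control arrays, a log2 fold change of 2.46 ± 0.06 (SE, n = 3 per group) or 5.50-fold. No other H3 gene reached 2-fold by gene mean. In the reference gene table the span of H3C4 contains H2AC7, an H2A gene with a log2 fold change of 1.01, and a probe set naming both genes had 1.83. H3C10 followed with 0.18, 0.69 and 0.70 with MAP30 and -0.23, -0.22 and -0.32 in control, or 1.72-fold, with 1 MAP30 array nearer to the controls. H3C6 was higher by 0.55 ± 0.09 on the log2 scale.

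At the other end, H3C7 had a log2 fold change of 0.03 ± 0.06, H3C12 of 0.03 ± 0.09 and H3C3 of -0.07 ± 0.05 (SE, n = 3 per group), and none was called. H3C3 stood at -0.04, -0.14 and 0.01 with MAP30 and at 0.01, -0.01 and 0.04 in control, with overlapping groups. The probe sets shared by H3C14 and H3C15 were called higher by 0.41 and 0.42, and the one that also names H3C13 and H3-7 by 1.53 on the log2 scale.

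**Figure D2:**
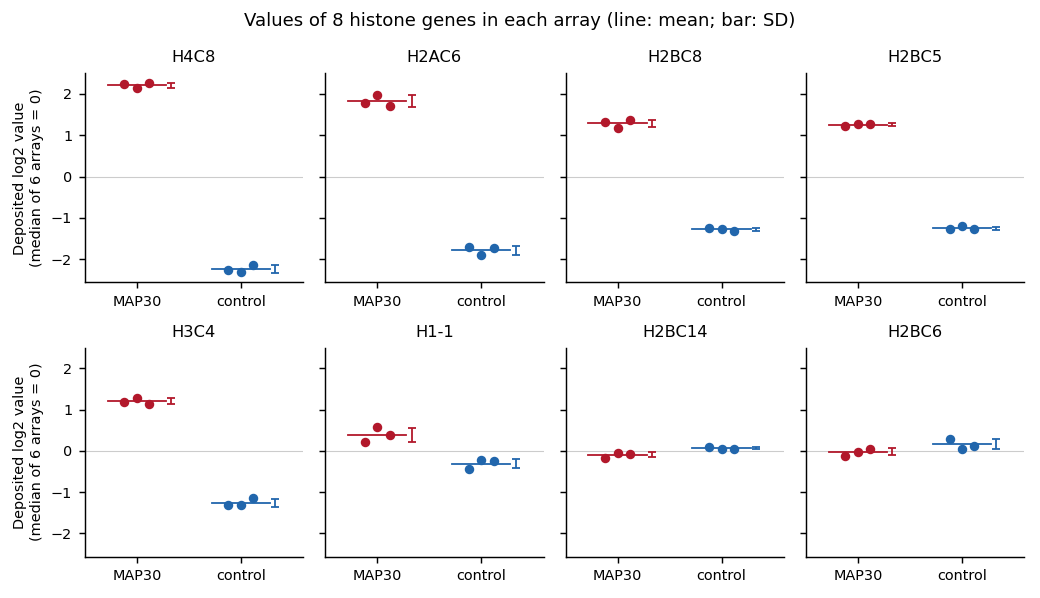
Deposited log2 values (y axis, centred so that the median of the 6 arrays is 0) of 8 histone genes in the 3 MAP30 and the 3 control arrays; points are arrays, lines group means and bars SD. H4C8, H2AC6, H2BC8, H2BC5, H3C4 and H1-1 have separate groups with MAP30 above, H2BC14 has them slightly the other way, and the groups of H2BC6 overlap.

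Of the H2A genes, H2AC6 stood at 1.79, 1.99 and 1.72 in the MAP30 arrays, against -1.72, -1.91 and -1.72 in the control arrays, a log2 fold change of 3.61 ± 0.08 (SE, n = 3 per group) or 12.2-fold. H2AC8 stood at 1.48, 1.52 and 1.66 with MAP30, against -1.52, -1.75 and -1.61 in control, or 9.07-fold. H2AC11 stood at 1.04, 1.06 and 0.93 with MAP30, against -0.89, -0.88 and -1.03 in control, or 3.85-fold as the mean of 2 probe sets that differed by 1.87 in log2 fold change. In all 3 genes the groups were well apart. H2AC18 and H2AC19, which were read only together, had log2 fold changes of 2.82 and 2.77 on their 2 shared probe sets. At the other end of the class, H2AC14 (0.04 ± 0.05), H2AC21 (0.02 ± 0.05) and H2AC12 (-0.03 ± 0.07) had overlapping groups and were not called. H2AC1, whose product is known from testis, was not called either, at 0.19 ± 0.08.

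The H2B genes held the 1 member called lower as well as 6 that were at least 2-fold higher. H2BC8 stood at 1.31, 1.18 and 1.37 in the MAP30 arrays, against -1.25, -1.26 and -1.31 in the control arrays, a log2 fold change of 2.56 ± 0.05 (SE, n = 3 per group) or 5.91-fold. H2BC5 stood at 1.21, 1.27 and 1.28 with MAP30, against -1.26, -1.21 and -1.28 in control, or 5.67-fold. H2BC18 followed at 0.87, 0.73 and 0.73 with MAP30, against -0.90, -0.96 and -0.78 in control, or 3.15-fold as the mean of 4 probe sets that ran from 0.17 to 3.31 in log2 fold change. All 3 genes had separate groups. H2BC14, the gene called lower, stood at -0.16, -0.05 and -0.08 with MAP30, against 0.09, 0.05 and 0.05 in control, a log2 fold change of -0.16 ± 0.04 that came to 0.0058 when the arrays were centred on poly-A controls. H2BC6 stood at -0.12, -0.02 and 0.05 with MAP30 and at 0.30, 0.05 and 0.13 in control, a log2 fold change of -0.19 ± 0.07. It had overlapping groups and was not called by gene mean, although 1 of its 3 probe sets, ending in _s_at, was called lower at -0.44, and the gene was called lower without control replicate 2 (-0.24) and when centred on hybridization controls (-0.39). H2BC13 (-0.13 ± 0.06) was not called either, but was called lower with a replicate block, without control replicate 1 (-0.17) and when centred on hybridization controls (-0.33). The testis gene H2BC1 was not called, at 0.03 ± 0.06.

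Of the H1 genes, which encode linker histones, none reached 2-fold. H1-1 stood at 0.22, 0.57 and 0.38 in the MAP30 arrays, against -0.44, -0.22 and -0.26 in the control arrays, a log2 fold change of 0.70 ± 0.09 (SE, n = 3 per group). H1-3 was higher by 0.67 ± 0.08, H1-2 by 0.38 ± 0.03 and H1-4 by 0.28 ± 0.07, the last coming to 0.08 without a call when centred on hybridization controls. H1-5 had 0.08, -0.20 and 0.01 with MAP30 and -0.08, 0.10 and -0.01 in control, with overlapping groups and no call. Just outside the rule, the replication-independent H1-10 had a log2 fold change of 0.86 ± 0.04, and the pseudogene H2BC20P one of 4.46 ± 0.04, close to that of H4C8.

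H2A and H2B genes often lie head to head, with their starts a short distance apart. Among the measured genes, 11 such pairs had starts 194 to 248 bases apart in the reference gene table. In 8 pairs both genes were called higher. Of the 60 histone genes 44 were called higher, beside 26.9% of all genes, so nothing about pairing is read from this count. H2AC8 and H2BC8 had log2 fold changes of 3.18 ± 0.07 and 2.56 ± 0.05, and H2AC11 and H2BC11 of 1.95 ± 0.06 and 1.04 ± 0.07. The widest difference was in H2AC6 and H2BC4, at 3.61 ± 0.08 and 1.02 ± 0.14, and in no other pair did it exceed 1. At the low end, H2AC14 and H2BC14 had 0.04 and -0.16, and H2AC1 and H2BC1 had 0.19 and 0.03. The value of H2BC11 is the mean of 3 probe sets from -0.06 to 2.45, and that of H2AC11 of 2 from 1.01 to 2.88. The SE of a gene mean leaves out this spread. The genes of a pair share a promoter region, and pairs are not replicates, so no correlation was computed.

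**Figure D3:**
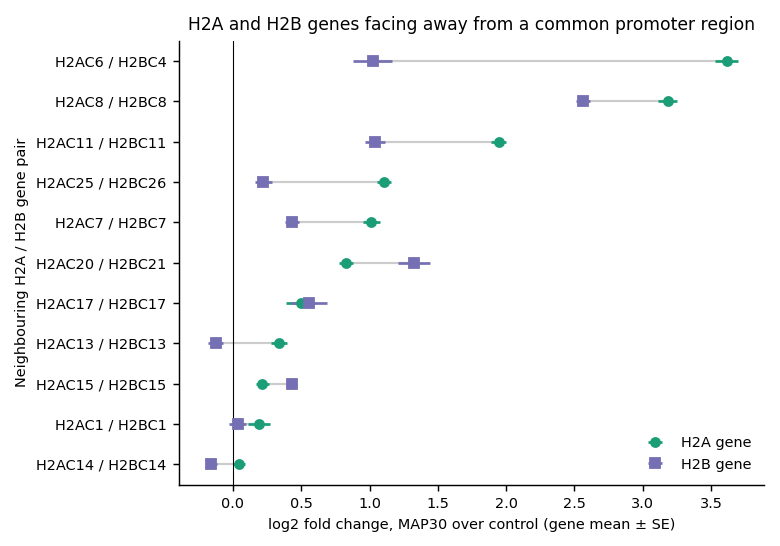
Log2 fold change of MAP30 over control (x axis, gene mean ± SE) for the H2A gene (circle) and the H2B gene (square) of 11 head-to-head pairs, ordered by the H2A gene. Both genes of the pair H2AC8 and H2BC8 are above 2, while H2AC6 is at 3.61 and its partner H2BC4 at 1.02.

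The promoters of H2AC6, H2BC8 and H2BC6 are shown because they hold the letters of the same promoter elements while the genes lie at opposite ends of the range of change. The sequences are the 250 bases before the start from RefSeq (GRCh38.p14), chr6:26123922-26124171 on the plus strand for H2AC6, chr6:26216689-26216938 on the minus strand for H2BC8 and chr6:26183511-26183760 on the plus strand for H2BC6. Capitals mark TATAAA (the TATA box), CCAAT (the CCAAT box) and ATTTGCAT (the octamer element, bound by POU factors such as OCT1 in H2B promoters), each on either strand.
H2AC6: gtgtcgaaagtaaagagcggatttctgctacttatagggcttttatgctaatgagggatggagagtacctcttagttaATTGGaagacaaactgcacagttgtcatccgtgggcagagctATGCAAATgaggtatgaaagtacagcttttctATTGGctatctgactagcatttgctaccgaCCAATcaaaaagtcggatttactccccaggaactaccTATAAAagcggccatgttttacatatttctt
H2BC8: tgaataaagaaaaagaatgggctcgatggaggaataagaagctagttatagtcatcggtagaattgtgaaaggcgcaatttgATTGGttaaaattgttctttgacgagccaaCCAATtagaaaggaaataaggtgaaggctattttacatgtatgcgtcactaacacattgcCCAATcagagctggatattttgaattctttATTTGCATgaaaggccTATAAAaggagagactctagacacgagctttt
H2BC6: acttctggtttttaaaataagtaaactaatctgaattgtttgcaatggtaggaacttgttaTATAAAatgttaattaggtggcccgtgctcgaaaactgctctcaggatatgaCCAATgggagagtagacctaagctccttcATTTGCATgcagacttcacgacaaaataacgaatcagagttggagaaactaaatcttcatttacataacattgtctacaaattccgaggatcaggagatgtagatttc
Counted from the start of the gene, TATAAA begins at -31 in H2AC6 and at -32 in H2BC8, but at -189 in H2BC6. The octamer begins at -130 in H2AC6, at -48 in H2BC8 and at -108 in H2BC6. H2BC6, which was not called, thus held the letters of all 3, at other distances from its annotated start. Its TATAAA lies before its CCAAT, which begins at -137, and before its octamer. Whether the letters act as promoter elements there was not tested.

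Over the 55 histone genes with a promoter in the table, ATTTGCAT was found in 47.3%, beside 1.8% of all promoters, and it divided the classes: 11 of 14 H2A and 14 of 18 H2B promoters held it, with 1 of 8 H3 promoters and none of the 5 H1 or 10 H4 promoters. CCAAT was found in 87.3% of them, beside 35.7% of all promoters, and in only 3 of 10 H4 promoters. TATAAA was found in 65.5%, beside 12% of all promoters. TTTGGCGC, a form of the E2F site, was found in none of the 55 and in 0.659% of all promoters. Of the 16 promoters of genes at least 2-fold higher, 62.5% held ATTTGCAT, 81.2% CCAAT and 62.5% TATAAA; of the other 39, 41% held ATTTGCAT, 89.7% CCAAT and 66.7% TATAAA. The 2 groups differ in class: 0 of 5 H1 genes and 1 of 10 H3 genes were at least 2-fold higher. The shares by size of change are thus not separated from class, and a link with the change was not tested. Letters of different motifs overlapped in 3 of the 55 histone promoters and in 114 of all promoters. In the 11 head-to-head pairs the starts are 194 to 248 bases apart, so the windows of the H2A and the H2B gene overlap. A match there can count for both genes, and the counts of these classes are not independent. All matches describe letters in the window only.

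Probe sets with shared probes were compared with the others, since near-identical copies can be read by the same probes. Of the 49 histone probe sets ending in _x_at or _s_at, 35 were called higher and 1 lower, and the median log2 fold change was 0.50; of all probe sets with these endings 26.8% were called higher and 35.6% lower, with a median of -0.04. Over all 49293 probe sets these shares were 26.2% and 30.1%. Of the 54 other histone probe sets, 32 were called higher and 1 lower, with a median of 0.36; of all other probe sets 26% were called higher and 27.9% lower, with a median of -0.02. The difference between the 2 medians, 0.147, was 0.0855 without control replicate 3. The 24 probe sets ending in _s_at had a median of 0.84 with 20 called higher (83.3%, beside 29.4% of all _s_at probe sets). The 25 ending in _x_at had a median of 0.38 with 15 called higher (60%, beside 24.7%), and the 51 ending in _at one of 0.32 with 29 called higher (56.9%, beside 19.7%).

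**Figure D4:**
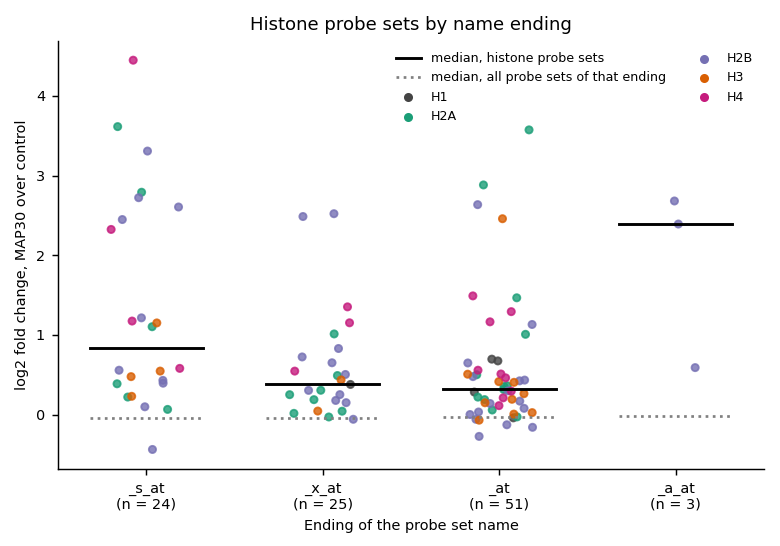
Log2 fold change of MAP30 over control (y axis) of each of the 103 histone probe sets by the ending of its name, coloured by class; solid lines are medians of the histone probe sets and dotted lines medians of all probe sets with that ending. The median for _s_at, 0.84, lies above those for _x_at, 0.38, and _at, 0.32, while the 3 ending in _a_at have 2.39.

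Within genes the 2 kinds of probe set gave no common direction. In the 24 genes that have both, the mean of the _x_at and _s_at probe sets was higher in 14 and that of the others in 10, with a median difference of 0.03 on the log2 scale. The differences ran from -1.28 in H2AC20 to 2.72 in H2BC18 and exceeded 0.5 in size in 8 genes. Genes read only by _x_at or _s_at probe sets had a median log2 fold change of 0.79 (14 genes, 12 called higher), genes with both kinds 0.43 (24 genes, 18 called higher) and genes read only by others 0.32 (22 genes, 14 called higher and 1 lower). Over all genes, 26.9% were called higher and 30.6% lower. Among the genes read by other probe sets only is H3C4, while H4C8 and H2AC6 were read only by a probe set ending in _s_at. Which copies contribute to their signal was not tested.

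Several genes had probe sets that differed widely. Of the 29 genes with at least 2 probe sets, none had probe sets called in opposite directions, 11 had a gap under 0.2 between their lowest and highest log2 fold change, and 5 had a gap over 1. In H2BC18 the 4 probe sets had 0.17, 0.42, 2.72 and 3.31, with both high values on probe sets ending in _s_at. In H2BC11 they had -0.06 (_at), 0.72 (_x_at) and 2.45 (_s_at), the first with overlapping groups and the other 2 called higher. In H2BC21, which was higher 2.51-fold by gene mean, they had 0.65, 0.65 and 2.68, the last on a probe set ending in _a_at. H2AC11 had 1.01 and 2.88, both called higher, and H2AC20 had 0.19, not called, and 1.47, called higher. H2BC5, by contrast, had 2.39, 2.49 and 2.63 on probe sets of 3 different endings.

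Some histone genes have an annotated span far longer than the usual single exon, which in the reference gene table (GRCh38.p14) is 386 to 797 bases. This comparison was chosen after the values had been seen. The 7 genes with spans over 1000 bases were H2BC18, H2BC5, H2BC4, H2BC12, H3C6, H3C4 and H2BC21, with spans of 2224 to 29682 bases. All 7 were called higher, with a median log2 fold change of 1.33. Of the other 53, 37 were called higher and 1 lower, with a median of 0.41. Of all genes 26.9% were called higher and 30.6% lower. Most of the 7 are H2B genes, so span is not separated from class, and its part was not tested. Both H4C8, with a span of 409 bases, and H2AC6, with 519, are among the short ones. The span of H2BC12 contains H4C9, so the 2 may share signal. By chromosome, the 6 measured genes on chromosome 1 had a median of 0.97 and the 53 on chromosome 6 one of 0.43.

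Of 21 genes of histone transcription and stem-loop processing, 6 (28.6%) were called higher and 9 lower, beside 26.9% and 30.6% of all genes, and the median log2 fold change was -0.09. The share called higher is near that of all genes. SLBP, which binds the stem-loop and is needed to process and translate these mRNAs, stood at -0.53, -0.46 and -0.49 in the MAP30 arrays, against 0.51, 0.49 and 0.46 in the control arrays, a log2 fold change of -0.98 ± 0.04 (SE, n = 3 per group). CASP8AP2, known as FLASH, which takes part in their transcription and 3' end processing, fell by 1.01 ± 0.06. NPAT, the activator of histone genes at the locus, was at -0.09 ± 0.05 and LSM11, of the U7 particle that guides the cut after the stem-loop, at 0.08 ± 0.04; neither was called. NPAT was called lower when centred on hybridization controls (-0.30) and without MAP30 replicate 2 (-0.13). LSM11 was called higher by the median over its probe sets (0.24), centred on poly-A controls (0.25) and after quantile normalization (0.10). TUT7, a uridyltransferase that takes part in histone mRNA decay, rose by 2.10 ± 0.06, and ZNF473, a zinc finger protein of the U7 complex, by 1.03 ± 0.06. With the arrays centred on hybridization controls the list had 3 called higher and 14 lower, and with poly-A controls 10 higher and 5 lower.

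Of 19 cleavage and polyadenylation factors, which make the ends of other mRNAs, 6 (31.6%) were called higher, close to the 26.9% of all genes, and 10 lower, beside 30.6% of all genes, with a median of -0.14. SYMPK, CPSF2, CPSF3 and CSTF2 belong to both lists. Of the cleavage factor I subunits, NUDT21 and CPSF6 fell by 1.06 ± 0.04 and 0.98 ± 0.04 on the log2 scale, while CPSF7 was at 0.13 ± 0.05 and was not called. Of cleavage factor II, PCF11 rose by 1.36 ± 0.05 and CLP1 fell by 0.62 ± 0.05. The part of these factors in the histone values was not tested.

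Of 15 measured histone genes outside the replication-dependent group, 2 were called higher and 7 lower, beside 26.9% and 30.6% of all genes, and the median log2 fold change was -0.10. H2AJ, an H2A variant that accumulates in senescent human fibroblasts, rose by 2.61 ± 0.04, and H1-10 was the other gene called higher. H2AJ was read only by probe sets ending in _s_at. Without the _x_at and _s_at probe sets, 12 of the 15 genes were left, without H2AJ, and 0 of the 12 were called higher. CENPA, the H3 variant of centromeres, fell by 1.51 ± 0.03, H2AZ2 by 1.40 ± 0.03, H2AX, the variant phosphorylated at DNA breaks, by 1.00 ± 0.04 and H2AZ1 by 0.59 ± 0.03. The genes of the general replacement histone H3.3 were near 0: H3-3A was at -0.16 ± 0.04, called lower, but at 0.0054 when centred on poly-A controls, and H3-3B was at -0.01 ± 0.03, not called.

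All 24 genes of the DNA replication list were called lower, beside 30.6% of all genes called lower and 26.9% higher, with a median of -1.32, among them POLE2 (-2.51 ± 0.07), a subunit of DNA polymerase epsilon, CCNE2 (-2.38 ± 0.06), the cyclin E2 of S phase entry, GINS2 (-2.32 ± 0.05), of the replicative helicase, and PCNA (-1.91 ± 0.06), the sliding clamp. Of 25 histone chaperones and assembly factors, 20 were called lower and 4 higher, beside the same shares of all genes, with a median of -0.70. NASP, which holds the soluble H3 and H4 pool, fell by 1.35 ± 0.04, ASF1B by 1.34 ± 0.03, RBBP4, a histone-binding subunit of several chromatin complexes, by 1.33 ± 0.04 and CHAF1A, the large subunit of chromatin assembly factor 1, by 1.05 ± 0.05. The replication-dependent histone genes had a median of 0.47 where the genes of DNA replication had one of -1.32 in the same arrays. How far the reading of polyadenylated RNA enters this difference was not tested. The gene lists, like the histone group, were chosen with earlier results of these data known. Nothing is therefore read from the excess of lower calls or from the difference between the medians.

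**Figure D5:**
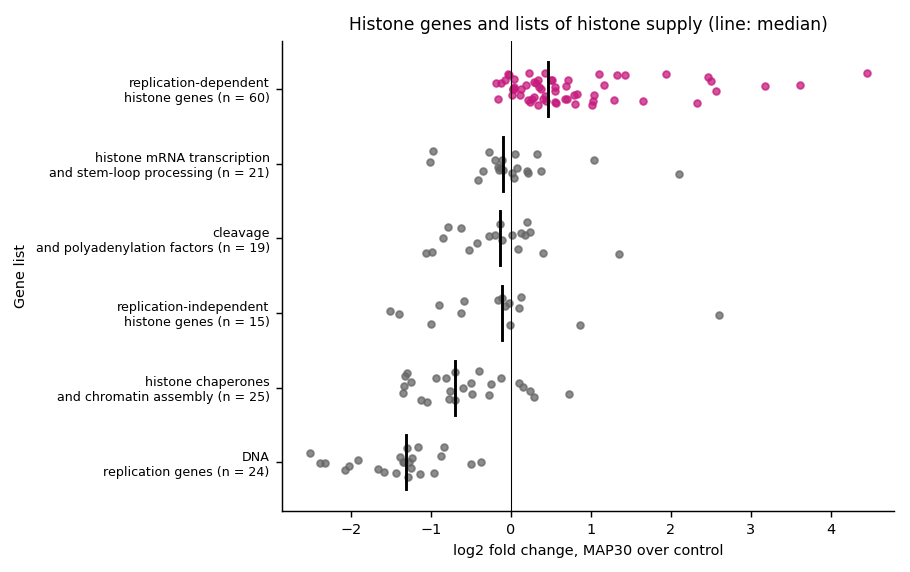
Log2 fold change of MAP30 over control (x axis) of the 60 histone genes and of 5 lists of related genes; each point is a gene, spread vertically for visibility, and the bars are medians. The histone genes lie mostly right of 0, with a median of 0.47, and all 24 DNA replication genes lie left of it.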

How the data were processed

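The authors deposited log2 values of 49395 probe sets in 6 arrays, already centred on each probe set's median; RMA and MAS5 are named, without their role, in the submitters' processing notes, and base 2 is an assumption on which every fold change rests. Of these probe sets, 102 were control probe sets, 44988 named 1 gene, 1832 several and 2473 none, by the platform annotation; 44961 matched the reference gene table by gene ID, with 0 changes of symbol. A gene's value is the mean over its probe sets that name 1 gene. MAP30 and control were compared with limma 3.58.1 in R 4.3.3 (lmFit and eBayes, two-sided), adjusted by Benjamini-Hochberg over all 18132 genes or all 49293 probe sets at 0.05, without further normalization. On simulated data the fit recovered 74% of genes and 36% of probe sets changed 1.25-fold, and 98% and 94% of those changed 2-fold. Few features were changed there, unlike in these arrays. The 3' over 5' ratios were compared by an exact permutation test. The number of arrays limits the precision. Promoters and gene spans came from RefSeq (GRCh38.p14); the files name no genome build. Tables and plots used Python 3.11.15, pandas 2.3.3, numpy 2.4.6 and matplotlib 3.10.9.

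The members, gene lists and tests were chosen with earlier results of these data known. The text names the 3 genes with the highest and the 3 with the lowest change of each class (all of H1), the 3 with the widest gap between probe sets, the 3 with the largest called change of each list, and a fixed set (SLBP, NPAT, LSM11, CASP8AP2, H2AX, H2AZ1, H3-3A, H3-3B, CENPA, CHAF1A, ASF1B and PCNA, with 1 item not reported here); other genes were named after their values had been seen. Alternatives were the median over a gene's probe sets, only probe sets ending neither in _x_at nor _s_at, centring on hybridization or poly-A controls, quantile normalization, shared probe sets added, robust eBayes, a replicate block and leaving out each array.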

Additional observations from a re-analysis of the deposited data

How the results depend on the processing

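Centring on other references moved all genes together: over all genes the median change was -0.23 on the log2 scale when the 18 hybridization control probe sets were set equal and 0.14 with the 24 poly-A controls, against -0.02 as deposited, and 21.1%, 70.3% and 46.8% of all calls were then higher. With hybridization controls, 36 histone genes were called higher, and 11 histone genes and 12 histone probe sets were called lower. The class medians were then 0.17 (H1), 0.14 (H2A), 0.22 (H2B), 0.12 (H3) and 0.54 (H4). H2AC14 came to -0.16, H2AC21 to -0.19, H3C7 to -0.18 and H3C12 to -0.18. The list of histone transcription and stem-loop processing then had 3 called higher and 14 lower, polyadenylation factors 2 higher, replication-independent histones 11 lower and chaperones 1 higher. With poly-A controls, 0 histone genes and 1 histone probe set were called lower, the class medians were 0.54 (H1), 0.52 (H2A), 0.60 (H2B), 0.49 (H3) and 0.91 (H4), H2BC14 came to 0.0058, H3-3A to 0.0054 and H3-3B to 0.15. The stem-loop list then had 10 higher and 5 lower, and replication-independent histones 5 higher. The causes of these shifts between references were not tested.

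Without probe sets ending in _x_at or _s_at, 28 of the 46 genes left were called higher. The class medians were then 0.48 (H1), 0.11 (H2B), 0.26 (H3) and 0.51 (H4), and H2BC11 came to -0.057. Of the 12 replication-independent histones left, without H2AJ, 0 were called higher. Fewer genes are left in this setting, and fewer probe sets enter each value. Quantile normalization gave 0.41 for H1 and 1 histone probe set lower. Adding shared probe sets gave 0.93 for H4. The median over probe sets put H3-3B at 0.10. The replicate numbers did not pair the arrays (correlations of same-numbered deviations -0.04, 0.07 and 0.01); the replicate block gave 45 histone genes higher and 2 lower, and 1 histone probe set lower.

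Leaving out 1 array at a time gave 42 to 45 histone genes called higher and 1 to 2 lower (2 without control replicate 1 or 2), and 1 to 4 histone probe sets lower (4 without control replicate 3). The median ranged from 0.28 to 0.42 in H2A, 0.30 to 0.37 in H3 and 0.72 to 0.80 in H4. The median of the _x_at and _s_at probe sets minus that of the others, 0.147 with all arrays, ranged from 0.0855 without control replicate 3 to 0.189 without control replicate 1. The depth of signal over background cannot be read from centred values.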
